A study of Mus musculus with 36 samples.

Results

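The Ras signalling core was followed through 8 genes in every treatment of the series: the Ras GTPase genes Hras, Nras, Rras, Rras2 and Mras, the Raf kinase genes Araf and Braf, and Nf1, which encodes a protein that switches Ras off. They were chosen by symbol, and every array probe whose transcript accession mapped to one of these 8 symbols was taken, which gave 16 probes among the 56605 on the array. All 8 genes were among the 32490 genes tested, of which 14618 were transcripts without a gene symbol. The cells were Bhas 42, a mouse fibroblast line made by putting a viral Ha-ras oncogene into BALB/c 3T3 cells, so every group, controls included, carried that added gene. Cells were exposed for 48 h from day 4 after seeding, and RNA of 4 samples per group was read on 1-colour Agilent arrays. DE (diatomaceous earth) was given at 5 µg/cm², and NM-203, an amorphous silica, at 1, 2 and 5 µg/cm², with 2% water as the control of both. Min-U-Sil 5, a crystalline silica, was given at 20 µg/cm², with water samples labelled as its own control. The phorbol ester TPA was given at 0.05 µg/ml, with 0.1% DMSO as its control.

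Ras proteins are membrane-bound switches that are active with GTP and inactive with GDP. Exchange factors load GTP, and GTPase activating proteins such as neurofibromin, the product of Nf1, end the signal. Active Ras recruits Raf kinases, which start the MEK and ERK kinase cascade that drives proliferation, and fixed activation of this route transforms fibroblasts. Bhas 42 is used to find agents that turn such primed cells into foci.

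Each level below is the log2 processed intensity of a probe minus the 75th percentile of its array, so 0 is the brightness of that percentile and 1 unit is a doubling. The brightest probe stands for a gene, and levels of different probes are not set against each other. Of the 16 probes, 15 were well above background on all 36 arrays, and no spot was saturated on any array. Between 55.1% and 76.2% of all probes were well above background on an array. The arrays were scanned on 2 days, 22 on the first and 14 on the second, and every array of NM-203 at 2 µg/cm², of Min-U-Sil 5 and of its water was in the second set, whereas every Water, DE, TPA and DMSO array was in the first. All 8 fibroblast markers listed were well above background on all 36 arrays, while Ptprc, Epcam and Tek, which define leukocytes, epithelium and endothelium, were so on none. Some markers listed for other cell types were read on all 36 arrays as well: Cd68, Lyz2, Aif1, Itgam and Cd14 of the 7 macrophage markers, Krt8 and Krt14 of the 5 epithelial ones and Pecam1 of the 4 endothelial ones. With 4 arrays per group, precision is limited throughout. Nothing ties the arrays to separate cultures, so p-values measure the spread between these samples only. The arrays read RNA of whole cultures, where fewer cells with a transcript and less RNA per cell cannot be told apart.

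Rras2 rose with NM-203 at 5 µg/cm² and with Min-U-Sil 5, while Rras and the brightest Araf probe fell in both. The second Araf probe passed in neither. Hras rose by a smaller amount with NM-203 at 5 µg/cm². DE and NM-203 at 1 µg/cm² gave no call among the 8 genes, and TPA gave a single one, a lower Nras. That call was lost in 16 of 23 alternatives, and the second Nras probe changed by -0.02. The second Rras2 probe rose with TPA by 0.65 (adjusted p 0.00412 in limma, over all probes), where 12% of all probes were called. The plot of levels on every array shows these groups beside their controls.

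**Figure D1:**
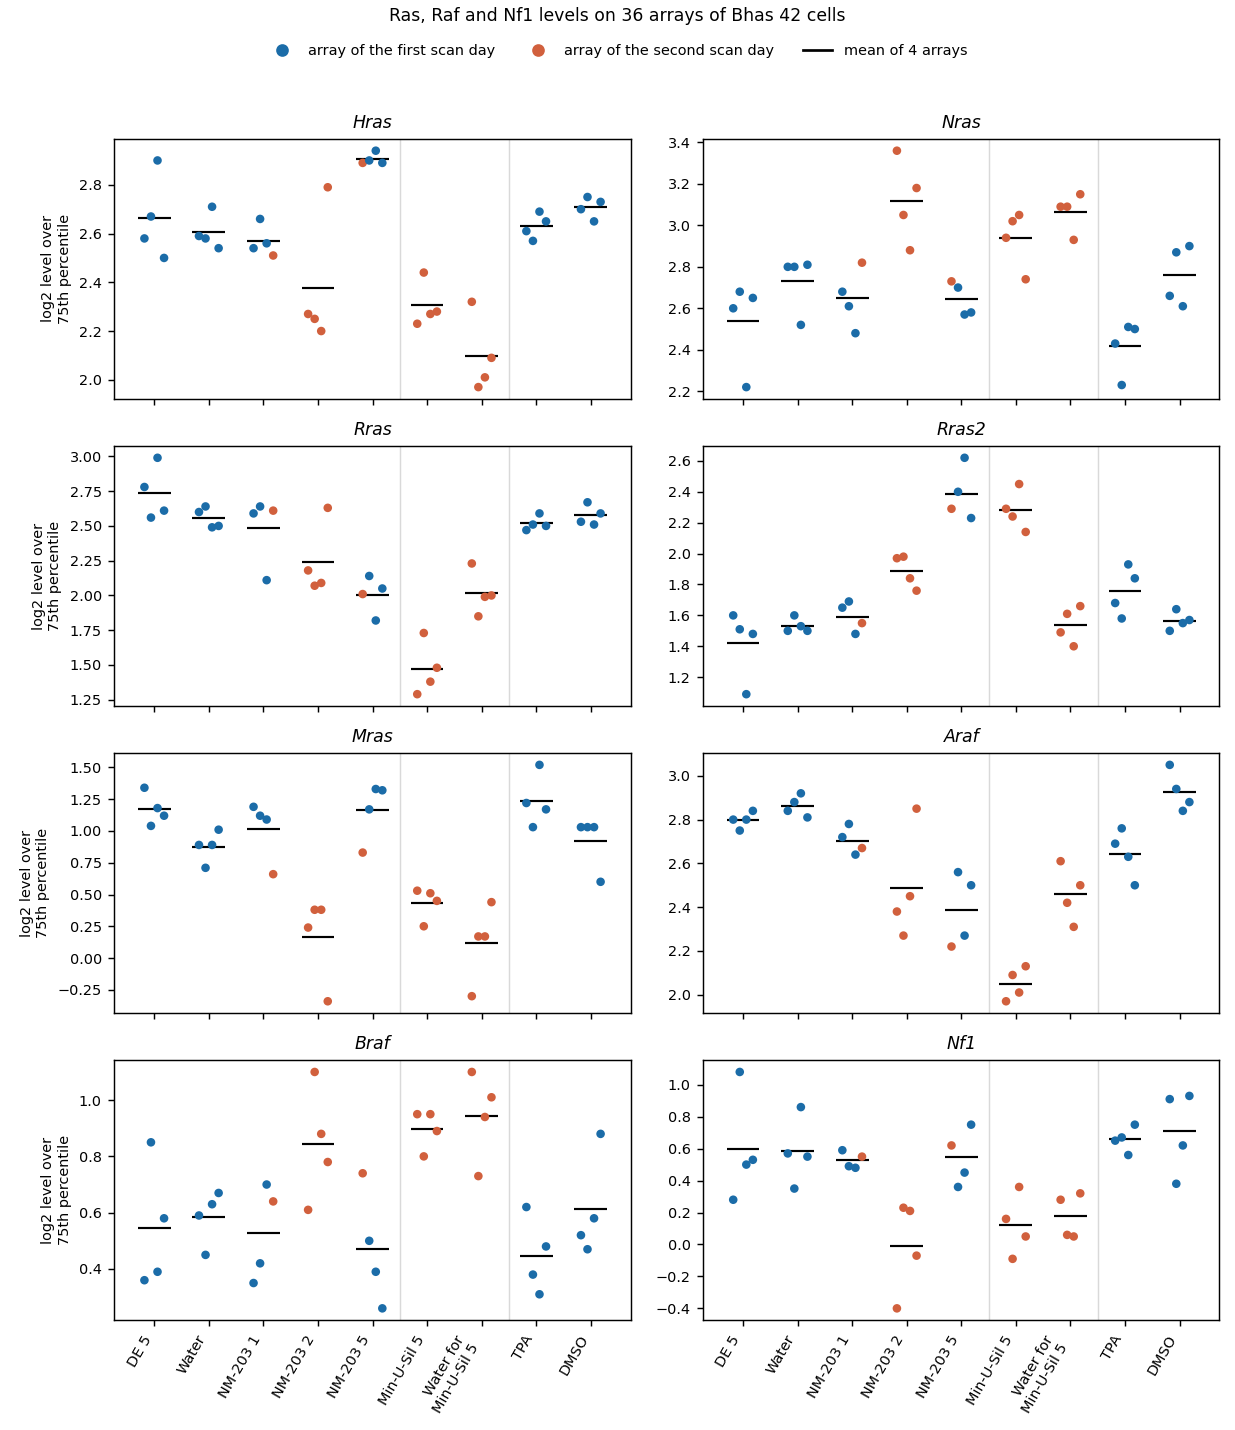
Level of each of the 8 genes (y axis, log2 processed intensity over the 75th percentile of the array) on 36 arrays in 9 groups (x axis). Points are arrays, coloured by scan day, and bars are means of 4 arrays. Rras2 sits between 2.23 and 2.62 with NM-203 at 5 µg/cm², above all 4 Water arrays (1.50 to 1.60).

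In the comparison of NM-203 at 5 µg/cm² with Water, limma called 4 of the 8 genes at an adjusted p under 0.05, 2 higher and 2 lower, where 33.1% of all genes tested were called, 14% higher and 19.1% lower. With Min-U-Sil 5 it called 3 of the 8, 1 higher and 2 lower, against 25.6% of all genes, 11.6% higher and 13.9% lower. With NM-203 at 2 µg/cm² it called 5, 2 higher and 3 lower, against 25% of all genes, 16.2% higher and 8.86% lower. With TPA it called 1, lower, against 11.7% of all genes, with 6.78% of the genes tested lower. With DE it called none, against 1.01% of all genes, and with NM-203 at 1 µg/cm² none, against 0.0862%. Larger shares were called when only the 20796 genes well above background on all 36 arrays were tested. There 9509 genes were called with NM-203 at 5 µg/cm², 7769 with Min-U-Sil 5, 7380 with NM-203 at 2 µg/cm² and 3872 with TPA. Of the 8 genes 4, 3, 6 and 2 were called there, in the same order. The comparisons of NM-203 and DE share the Water arrays. At an unadjusted p under 0.05, neither DE nor NM-203 at 1 µg/cm² had any of the 8 genes.

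Counts of genes whose groups did not overlap were taken too. With NM-203 at 2 µg/cm² 4 of the 8 genes had no overlap with Water, where 22.4% of all genes had none. With NM-203 at 5 µg/cm² it was also 4, against 36.1%, and with Min-U-Sil 5 it was 3, against 27.3%. With TPA it was 2, against 19.7%. With DE it was Mras alone, against 7.41%, and with NM-203 at 1 µg/cm² Araf alone, against 5.64%. With only 8 genes, no test sets these counts apart from the shares of all genes.

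**Figure D2:**
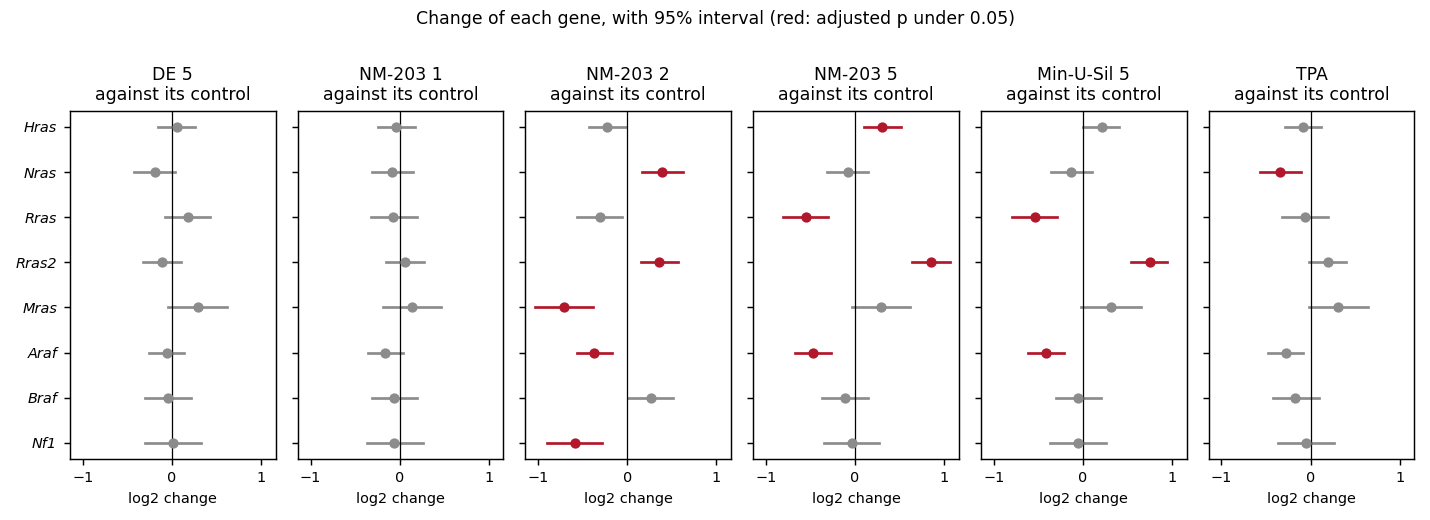
Log2 change of each gene (y axis) in the 6 treatments against their own controls (x axis, treated minus control), with the 95% confidence interval of the limma fit. Red marks an adjusted p under 0.05. With DE and NM-203 at 1 µg/cm² every interval includes 0, and Rras2 with NM-203 at 5 µg/cm² lies farthest to the right at 0.85.

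Hras and Nras are classical Ras genes, whose proteins are lipidated, bind Raf and are mutated in many tumours. The Hras probe read 2.89, 2.90, 2.94 and 2.89 on the arrays of NM-203 at 5 µg/cm², against 2.59, 2.58, 2.71 and 2.54 on the Water arrays. All 4 treated arrays lay above all 4 Water arrays, and their spread was 0.02 (SD, n = 4). The change was 0.30 ± 0.10 (log2, SE), a fold of 1.23, with an adjusted p of 0.019 in limma. It did not pass with normexp background correction and quantile normalization, at 0.20 and an adjusted p of 0.141 in limma, nor without Water replicate 4, at 0.28 and 0.0545. Within single slides it was 0.38 and 0.19 and did not pass. The added Ha-ras may share sequence with this probe. The files give no probe sequences, so whether the probe read the mouse gene, the added gene or both was not tested.

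Against DE, which was given at the same mass per area, Hras with NM-203 at 5 µg/cm² differed by 0.25 ± 0.10 (log2, SE), with an adjusted p of 0.0684 in limma. DE replicate 3 read 2.90, inside the range of the NM-203 arrays, and without it the difference was 0.32 with an adjusted p of 0.0172. With Min-U-Sil 5, Hras averaged 2.30 ± 0.09, against 2.10 ± 0.16 in its water (SD, n = 4 each), and the change of 0.21 did not pass (adjusted p 0.146 in limma). With TPA the Hras change was -0.08, with a 95% interval of -0.29 to 0.12. Over the 9 groups Hras ran between 2.10 in the water of Min-U-Sil 5 and 2.91 with NM-203 at 5 µg/cm², and of the 8 pairs of neighbours in that order only the top pair, NM-203 at 5 µg/cm² and DMSO, did not overlap.

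A second Hras probe, designed to another transcript, was dim. It was well above background on 6 of the 36 arrays, namely all 4 of Min-U-Sil 5, 1 of the 4 of its water and 1 of the 4 of NM-203 at 2 µg/cm². With Min-U-Sil 5 it read -4.56, -4.39, -5.02 and -5.04, against -5.74, -5.29, -4.88 and -6.84 in its water. The ranges overlapped, and the change of 0.94 ± 0.43 did not pass (adjusted p 0.118 in limma). On the arrays of NM-203 at 5 µg/cm² this probe was not well above background, so no second reading of the rise on the first probe was had.

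Nras was lower with TPA. It read 2.43, 2.23, 2.51 and 2.50 on the TPA arrays, against 2.66, 2.87, 2.61 and 2.90 on the DMSO arrays. The groups did not overlap, and the change was -0.34 ± 0.11 (log2, SE) with an adjusted p of 0.0451 in limma. This call was lost in 7 of the 8 fits that left out 1 array, with adjusted p up to 0.153, and in 16 of 23 alternatives in all. The second Nras probe changed by -0.02 with TPA. Over the 9 groups Nras ran between 2.42 with TPA and 3.12 with NM-203 at 2 µg/cm², and every pair of neighbours in that order overlapped.

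The 2 Nras probes also differed with NM-203 at 5 µg/cm². The brightest read 2.73, 2.70, 2.57 and 2.58, against 2.80, 2.80, 2.52 and 2.81 in Water, a change of -0.08 that did not pass (adjusted p 0.661 in limma). The second read 3.10, 3.10, 2.87 and 2.81, against 2.39, 2.65, 2.43 and 2.62 in Water. On that probe all 4 treated arrays lay above all Water arrays, and the change of 0.45 ± 0.10 passed over all probes (adjusted p 0.000483 in limma), where 35.1% of all probes were called. Both probes carry the same transcript accession, and why they differed was not tested.

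Rras, Rras2 and Mras form the R-Ras branch, whose proteins share much of the effector region of classical Ras. R-Ras itself is known for integrin activation and cell adhesion, the product of Rras2 (TC21) transforms fibroblasts when activated and signals strongly to PI3K, and M-Ras forms the complex with Shoc2 that helps activate Raf.

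Rras2 read 2.29, 2.40, 2.62 and 2.23 with NM-203 at 5 µg/cm², against 1.50, 1.60, 1.53 and 1.50 in Water. With Min-U-Sil 5 it read 2.29, 2.24, 2.45 and 2.14, against 1.49, 1.61, 1.40 and 1.66 in its water. In both comparisons every treated array lay above every control array. The change was 0.85 ± 0.10 (log2, SE), a fold of 1.80, with NM-203 at 5 µg/cm² (adjusted p 6.56e-08 in limma), and 0.75 ± 0.10, a fold of 1.68, with Min-U-Sil 5 (adjusted p 1.39e-06). Each call held in every alternative fit of its comparison, 24 for NM-203 and 23 for Min-U-Sil 5. Within single slides the change was 0.92 with NM-203 over 2 arrays against 1 Water array, and 0.87 over 1 against 1. For Min-U-Sil 5 the change on 1 slide was 0.73 over 3 arrays against 2 of its water, and 0.87 over 1 against 2. These values show the direction on each slide, and lone arrays give no spread of their own.

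The second Rras2 probe gave larger changes. It read 0.25, 0.23, 0.34 and 0.03 with NM-203 at 5 µg/cm², against -1.0, -1.35, -1.01 and -1.39 in Water. All treated arrays were above all Water arrays, with a change of 1.40 ± 0.15 or 2.64-fold (adjusted p 1.36e-08 in limma, over all probes). With Min-U-Sil 5 it changed by 1.09 ± 0.15 (adjusted p 2.26e-06), where 26.7% of all probes were called. With TPA it changed by 0.65 ± 0.15 (adjusted p 0.00412), where 12% of all probes were called, whereas the brightest probe changed by 0.19 ± 0.10 and did not pass (adjusted p 0.267). The TPA arrays read 1.68, 1.58, 1.93 and 1.84 on the brightest probe, against 1.50, 1.64, 1.55 and 1.57 with DMSO, and the 2 ranges overlapped.

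The difference between the effects of NM-203 at 5 µg/cm² and of TPA, each against its own control, was tested directly. Of the 8 genes 1 was called, Rras2, at 0.66 ± 0.14 (log2, SE) with an adjusted p of 0.00163 in limma, where 14.8% of all genes were called, 7.74% higher. It did not pass with normexp and quantile normalization, at 0.38 and an adjusted p of 0.0767. Against DE at the same mass per area, NM-203 at 5 µg/cm² had 0.96 ± 0.10 more Rras2, a fold of 1.95 (adjusted p 1.07e-08), and 3 of the 8 genes were called, 1 higher and 2 lower, against 29.2% of all genes, 14% higher and 15.2% lower. DE arrays read 1.60, 1.51, 1.09 and 1.48, within or below the Water values.

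Rras2 over the NM-203 doses averaged 1.53 ± 0.05 in Water, 1.59 ± 0.09 at 1 µg/cm², 1.89 ± 0.11 at 2 µg/cm² and 2.38 ± 0.17 at 5 µg/cm² (SD, n = 4 each). The arrays at 1 µg/cm² read 1.65, 1.69, 1.48 and 1.55, and those at 2 µg/cm² read 1.97, 1.98, 1.84 and 1.76. The ranges of Water and of 1 µg/cm² overlapped, while those of 1 and 2 and of 2 and 5 µg/cm² did not. All 4 arrays at 2 µg/cm² were of the second scan day, so dose and scan day partly go together. With normexp and quantile normalization the change at 2 µg/cm² over Water was 0.12 and did not pass (adjusted p 0.377 in limma). Over the 9 groups Rras2 ran between 1.42 with DE and 2.38 with NM-203 at 5 µg/cm², and the step between NM-203 at 2 µg/cm² and Min-U-Sil 5 was the only one without overlap.

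Rras moved the other way. It read 2.01, 2.14, 1.82 and 2.05 with NM-203 at 5 µg/cm², against 2.60, 2.64, 2.49 and 2.50 in Water. With Min-U-Sil 5 it read 1.29, 1.73, 1.38 and 1.48, against 2.23, 1.85, 1.99 and 2.00 in its water. Neither pair of groups overlapped. The change was -0.55 ± 0.13 with NM-203 at 5 µg/cm² (adjusted p 0.000702 in limma) and -0.54 ± 0.13 with Min-U-Sil 5 (adjusted p 0.00125). Within single slides it was -0.57 and -0.35 for NM-203 and -0.41 and -0.73 for Min-U-Sil 5, over the same few arrays, and none passed. The water of Min-U-Sil 5 was itself lower than Water, at 2.02 against 2.56. Rras has 1 probe on the array. Its group means ran between 1.47 with Min-U-Sil 5 and 2.73 with DE, the widest range of the 8 genes, and only Min-U-Sil 5 was apart from its neighbour in the order, NM-203 at 5 µg/cm². Against DE, Rras with NM-203 at 5 µg/cm² differed by -0.73 (adjusted p 2.83e-05).

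Mras ran from 0.12 in the water of Min-U-Sil 5 to 1.24 with TPA, and 3 groups, all of the second scan day, lay below the other 6 without overlap. With NM-203 at 5 µg/cm² it read 0.83, 1.17, 1.33 and 1.32, against 0.89, 0.71, 0.89 and 1.01 in Water. The treated array at 0.83, replicate 1, was the only one of that group scanned on the second day, and the groups overlapped through it. The change of 0.29 ± 0.16 did not pass (adjusted p 0.201 in limma), and it passed with scan day as a block, at 0.40 and an adjusted p of 0.0436, and among arrays of the first scan day only, at 0.40 and 0.0178. The second Mras probe changed by -0.22 and did not pass (adjusted p 0.319). With TPA the change was 0.31 and with Min-U-Sil 5 it was 0.32, neither of which passed. With the mean of both Mras probes they did, at 0.35 with TPA (adjusted p 0.00873) and 0.30 with Min-U-Sil 5 (adjusted p 0.0136). With DE all 4 Mras arrays, at 1.04 to 1.34, lay above the Water arrays, but the change of 0.29 did not pass (adjusted p 0.559).

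Araf and Braf encode kinases that bind active Ras and phosphorylate MEK. B-Raf is the more active of the pair in cells, and A-Raf has the weaker kinase activity. Araf read 2.22, 2.56, 2.27 and 2.50 with NM-203 at 5 µg/cm², against 2.84, 2.88, 2.92 and 2.81 in Water. With Min-U-Sil 5 it read 1.97, 2.09, 2.01 and 2.13, against 2.61, 2.42, 2.31 and 2.50 in its water. Neither pair of groups overlapped. The change was -0.47 ± 0.10 with NM-203 at 5 µg/cm² (adjusted p 0.000231 in limma) and -0.41 ± 0.10 with Min-U-Sil 5 (adjusted p 0.00156). Within single slides it was -0.42 and -0.36 for NM-203 and -0.30 and -0.55 for Min-U-Sil 5, which did not pass. Against DE, Araf with NM-203 at 5 µg/cm² differed by -0.41 (adjusted p 0.00133), a call lost with array median scaling, at -0.31 and an adjusted p of 0.117. With the mean of both probes Araf lost its call with Min-U-Sil 5, at -0.18 and an adjusted p of 0.0922.

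The second Araf probe, designed to another transcript, did not follow the brightest. It changed by -0.08 with NM-203 at 5 µg/cm² and by 0.06 with Min-U-Sil 5, neither of which passed (adjusted p 0.633 and 0.743). With NM-203 at 2 µg/cm² it read 1.57, 1.60, 1.34 and 1.66, against 1.02, 1.09, 0.77 and 0.96 in Water, and rose by 0.58 ± 0.10 (adjusted p 9.98e-05), where 26.6% of all probes were called and the brightest Araf probe fell by 0.37. The water of Min-U-Sil 5, of the same scan day, was also above Water on this second probe, by 0.31 (adjusted p 0.0285). With TPA the brightest Araf probe did not overlap with DMSO either, at 2.64 ± 0.11 against 2.93 ± 0.09 (SD, n = 4 each), and its change of -0.28 was just outside the threshold (adjusted p 0.0544, and 0.0451 without TPA replicate 2). Over the 9 groups the brightest Araf probe ran between 2.05 with Min-U-Sil 5 and 2.93 with DMSO, and only Min-U-Sil 5 was apart from its neighbour. The plot of both probes shows where they part.

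**Figure D3:**
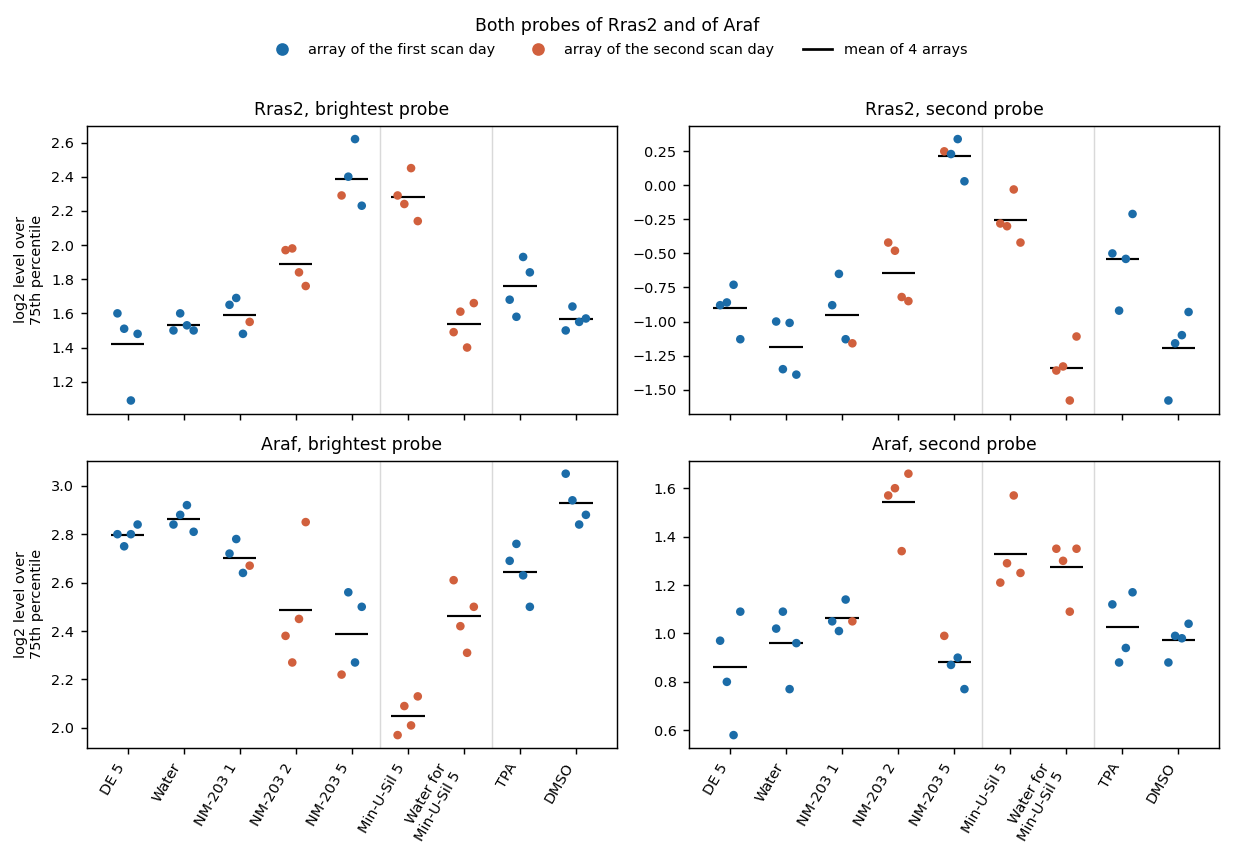
Levels of the brightest probe (left) and the second probe (right) of Rras2 and of Araf on 36 arrays (y axis, log2 over the 75th percentile of the array) by group (x axis). Points are arrays coloured by scan day, and bars are means of 4 arrays. Both Rras2 probes are highest with NM-203 at 5 µg/cm², while the Araf probes differ in order.

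Braf ran between 0.45 with TPA and 0.94 in the water of Min-U-Sil 5, the narrowest range of the 8 genes at 0.49, and no neighbours in its order of groups were apart. With NM-203 at 5 µg/cm² it read 0.74, 0.50, 0.39 and 0.26, against 0.59, 0.45, 0.63 and 0.67 in Water. The groups overlapped, and the change of -0.11 had a 95% interval of -0.37 to 0.14. None of the 3 Braf probes passed in any treatment against its own control, save with another normalization. With normexp and quantile normalization Braf was called with NM-203 at 2 µg/cm² over Water, at 0.35 (adjusted p 0.04 in limma).

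Nf1 encodes a large GTPase activating protein whose loss leaves Ras active. It averaged 0.54 ± 0.17 with NM-203 at 5 µg/cm², against 0.58 ± 0.21 in Water (SD, n = 4 each), and the change of -0.04 had a 95% interval of -0.35 to 0.27. With Min-U-Sil 5 the change was -0.05, with TPA -0.05 and with DE 0.01, and none passed. A second Nf1 probe changed by 0.34 ± 0.13 with Min-U-Sil 5 (adjusted p 0.0423 in limma over all probes), and by 0.21 with NM-203 at 5 µg/cm², which did not pass (adjusted p 0.23). Nf1 ran between -0.01 with NM-203 at 2 µg/cm² and 0.71 with DMSO, and the 3 groups scanned wholly on the second day had the 3 lowest means.

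NM-203 at 5 µg/cm² and Min-U-Sil 5 were set side by side, though their doses, 5 and 20 µg/cm², and their scan days differed. None of the 8 genes was called for a difference between the 2 effects, where limma called 0.2% of all genes. No gene of the 8 had an unadjusted p under 0.05 there. For Rras2 the difference was 0.11, with a 95% interval of -0.19 to 0.40. For Rras it was -0.01, with an interval of -0.37 to 0.35, and for Araf -0.06, with an interval of -0.34 to 0.22. These intervals do not show that the 2 silicas act alike.

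For NM-203 at 2 µg/cm² the calls depended on the control. Against Water, limma called Nras at 0.39 and Rras2 at 0.36 as higher, and Mras at -0.71, Araf at -0.37 and Nf1 at -0.59 as lower. Mras read 0.24, 0.38, 0.38 and -0.34 with NM-203 at 2 µg/cm², against 0.89, 0.71, 0.89 and 1.01 in Water. Nf1 read -0.40, 0.23, 0.21 and -0.07, against 0.57, 0.35, 0.86 and 0.55 in Water. Neither of these genes overlapped with Water, while 1 Araf array of NM-203, at 2.85, lay within the Water range of 2.81 to 2.92. The second probes of Nras (0.35) and Rras2 (0.54) were also called as higher. Those of Mras (0.03) and Nf1 (-0.23) did not pass, and that of Araf rose by 0.58. All NM-203 arrays at this dose were of the second scan day and all Water arrays of the first. The water of Min-U-Sil 5, also of the second day, differed from Water in 6 of the 8 genes, where 24.5% of all genes were called, 18.8% higher and 5.67% lower. There Nras (0.33) and Braf (0.36) were higher in the water of Min-U-Sil 5, and Hras (-0.51), Rras (-0.54), Mras (-0.76) and Araf (-0.40) were lower. With scan day or slide as a block none of the 8 genes was called for NM-203 at 2 µg/cm². Of all genes 1716 and 2327 were called there, in place of 8125. The change of Nf1 was then -0.65 with scan day and -0.64 with slide as a block, with SEs of 0.24 and 0.25 in place of 0.15. That of Rras2 was 0.44 and 0.47, with SEs of 0.16 and 0.17 in place of 0.10. The changes of Nras (0.21 and 0.29), Mras (-0.25 and -0.31) and Araf (-0.24 and -0.19) were smaller than without a block. Only NM-203 at 1 and at 5 µg/cm² had arrays of both scan days, with 1 array each on the second, so the scan day block rests on few arrays. Against the water of Min-U-Sil 5, of the same scan day, only Rras2 passed, at 0.35 ± 0.10 with an adjusted p of 0.0193, while Mras was at 0.05, Araf at 0.02 and Nf1 at -0.18. There 5060 of all genes were called. Against Water, Rras2 did not pass with normexp and quantile normalization, at 0.12 and an adjusted p of 0.377 in limma. Nor did it with array median scaling (adjusted p 0.0599) or with only the groups compared (0.0818). Without NM-203 2 replicate 4, Hras and Rras were also called against Water, at -0.36 (adjusted p 0.00221) and -0.44 (adjusted p 0.00762), and Nras lost its call without Water replicate 3 (adjusted p 0.0546) or NM-203 2 replicate 1 (0.0567). How much of the difference between the 2 water groups comes from scan day was not tested.

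**Figure D4:**
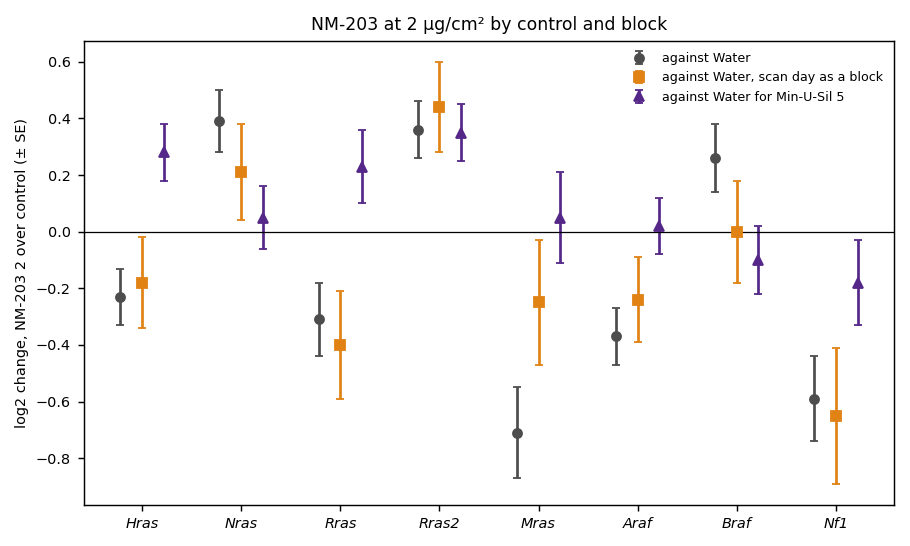
Log2 change of each gene (x axis) with NM-203 at 2 µg/cm² over a control (y axis, ± SE of the limma fit), against Water, against Water with scan day as a block, and against the water of Min-U-Sil 5. Rras2 stays between 0.35 and 0.44 in these 3 settings, while Mras lies at -0.71, -0.25 and 0.05. With normexp and quantile normalization, not plotted, Rras2 was at 0.12.

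Summed markers of other cell types moved with some of these groups. Each sum was taken over unlogged intensities, so the brightest marker of a list weighs most. Itgam read 2.93 to 4.56 over the 36 arrays, and Cd14, the next macrophage marker, -0.19 to 0.55, so the macrophage sum mainly follows Itgam. Krt14, at -3.04 to -1.31, was the brightest epithelial marker. The summed level of the 7 macrophage markers ran between 3.54 and 4.09 with NM-203 at 5 µg/cm², against 4.23 to 4.61 in Water, and between 3.52 and 3.93 with Min-U-Sil 5, against 3.64 to 4.24 in its water. With NM-203 at 2 µg/cm² it ran between 3.31 and 3.93, below all Water arrays, which were of the other scan day. That range overlapped the water of Min-U-Sil 5, of the same scan day. Adgre1, the other macrophage marker beside Ptprc, was well above background on 7 arrays. The summed epithelial markers ran between -2.20 and -1.78 with NM-203 at 5 µg/cm², against -1.58 to -1.38 in Water, and between -2.01 and -1.64 with TPA, against -1.50 to -1.40 in DMSO. The summed fibroblast markers ran between 9.11 and 9.55 with NM-203 at 5 µg/cm², against 9.72 to 9.90 in Water, and between 9.42 and 9.55 with Min-U-Sil 5, against 9.73 to 10.27 in its water. Their part in the results was not tested.

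The promoter windows of the 3 genes called in both silica comparisons, NM-203 at 5 µg/cm² and Min-U-Sil 5, are shown. On the brightest probes Rras2 was up and Rras and Araf were down. The second Araf probe did not fall with it, at -0.08 with NM-203 at 5 µg/cm² and 0.06 with Min-U-Sil 5. The windows are those of RefSeq in GRCm38.p6, each 250 bases before to 50 after a listed start, and are printed in the direction of transcription. The Rras2 window lies at chr7:114117732-114118031 on the minus strand, Rras at chr7:45017692-45017991 on the plus strand (the first of 3 listed starts), and Araf at chrX:20848293-20848592 on the plus strand. Capitals mark matches to GGGCGG (the GC box) or CCAAT (the CCAAT box) on either strand.
Rras2: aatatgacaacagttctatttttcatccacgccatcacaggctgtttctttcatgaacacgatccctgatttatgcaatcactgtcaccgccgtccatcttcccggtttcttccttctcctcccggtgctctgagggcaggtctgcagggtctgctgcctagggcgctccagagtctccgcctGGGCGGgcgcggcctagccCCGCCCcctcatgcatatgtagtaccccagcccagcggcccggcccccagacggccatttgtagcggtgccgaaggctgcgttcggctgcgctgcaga
Rras: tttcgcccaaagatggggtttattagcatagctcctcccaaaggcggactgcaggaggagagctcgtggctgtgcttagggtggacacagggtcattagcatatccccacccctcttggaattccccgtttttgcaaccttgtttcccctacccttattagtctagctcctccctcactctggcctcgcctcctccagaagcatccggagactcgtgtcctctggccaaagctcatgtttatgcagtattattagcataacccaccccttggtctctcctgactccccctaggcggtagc
Araf: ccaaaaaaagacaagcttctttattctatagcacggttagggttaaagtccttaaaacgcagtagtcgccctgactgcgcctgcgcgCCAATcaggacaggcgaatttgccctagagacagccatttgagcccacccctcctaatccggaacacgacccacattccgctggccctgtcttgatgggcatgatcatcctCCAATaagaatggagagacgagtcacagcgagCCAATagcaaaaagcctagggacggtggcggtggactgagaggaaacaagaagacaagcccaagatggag
The Rras2 window held 2 GC boxes and no CCAAT box, the Araf window 3 CCAAT boxes and no GC box, and the first Rras window neither. The windows of the other Rras starts, not printed, held no GC box and 1 and 2 CCAAT boxes, so the Rras promoters as listed are not set apart from Araf by these motifs. GGGCGG occurred in 35.7% and CCAAT in 37.4% of the 32851 windows of the same length. On both strands the TATA box (TATAAA), present in 13.6% of all windows, the AP-1 site (TGANTCA), in 7.81%, the E-box (CACGTG), in 7.15%, the E2F core (GCGGGAA), in 4.6%, and the ETS core (CCGGAAG), in 8.86%, had no match in these windows. A match or its absence describes these letters only.

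The wider pathway was read from 6 lists of genes, 68 of which were tested. With NM-203 at 5 µg/cm², 14 of the 68 rose and 15 fell, 42.6% against 33.1% of all genes, with a median log2 change of -0.12 against 0.01 over all genes. With Min-U-Sil 5, 9 rose and 10 fell, 27.9% against 25.6%. With TPA, 5 rose and 9 fell, 20.6% against 11.7%, and with DE or NM-203 at 1 µg/cm² none passed. With NM-203 at 2 µg/cm², 22 rose and 3 fell, 36.8% against 25%, with Water of the other scan day as the control. Of the 32490 genes tested, 14618 had no symbol, whereas the lists hold only genes with one, so these shares compare unlike sets. Among the 20796 genes well above background on all 36 arrays, 9509 were called with NM-203 at 5 µg/cm², 7769 with Min-U-Sil 5 and 3872 with TPA. Those are larger shares than among all genes, so no excess in the lists is shown.

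Among 16 Raf scaffolds and regulators tested, 4 rose and 5 fell with NM-203 at 5 µg/cm². Map2k1, which encodes MEK1, rose by 0.74 (adjusted p 6.68e-07 in limma), and Mapk3, which encodes ERK1, fell by 1.04 (adjusted p 2.31e-06). Lztr1, an adaptor of a ubiquitin ligase that targets Ras, fell by 0.64, and Cnksr3, a scaffold of the KSR connector family, fell by 0.81. With TPA, Cnksr3 fell by 0.95 and Lztr1 by 0.34, and Map2k1 rose by 0.37.

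Of 10 genes tested from the list of other proteins with a GAP or GAP-related domain, 2 rose and 2 fell with NM-203 at 5 µg/cm². The list holds Iqgap1 and Iqgap3, whose proteins have a GAP-related domain but bind Rac and Cdc42 rather than end Ras signals. Iqgap3 rose by 1.82 (3.53-fold, adjusted p 9.40e-10 in limma). It also rose with Min-U-Sil 5, by 1.76, and with TPA, by 2.47. Rasal2, a Ras GTPase activating protein, rose by 0.70 and Rasa4 fell by 0.78 with NM-203 at 5 µg/cm². Of 8 exchange factors 4 fell and none rose with NM-203 at 5 µg/cm²: Rgl1 fell by 0.42 and Rgl2 by 0.34, which act on Ral and not on Ras, Sos2, which loads Ras, fell by 0.29, while Rasgrp3, the other one counted, was below the well-above-background mark on all 4 treated arrays, so only a bound could be had.

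Of 10 enzymes that process Ras at membranes, 3 rose and 1 fell with NM-203 at 5 µg/cm². Zdhhc9, part of the palmitoyltransferase of Hras and Nras, fell by 0.71 and Fntb, the beta subunit of farnesyltransferase, rose by 0.84. Both moved the same way with Min-U-Sil 5, by -0.67 and 0.81. Of 10 adaptors upstream of Ras, 3 rose and 2 fell with NM-203 at 5 µg/cm², among them Crk, which rose by 1.03, and Gab1, which fell by 0.62. Of 14 other Ras family GTPases tested, 2 rose and 1 fell, among them Rala at 0.46 and Rap2b at -0.63.

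The 3 genes with the widest range of group means were Rras (1.26), Mras (1.12) and Rras2 (0.96). For each, the most similar genes were found by Pearson's r over the 36 arrays among 17786 genes. Rras was most like Cdkn2c (0.948), Nudt14 (0.943) and Cst3 (0.938). Mras was most like Dnajc25 (0.938), Rsrc1 (0.907) and Cdc27 (0.892). Rras2 was most like Pwp1 (0.961), Ndufaf2 (0.961) and Uchl3 (0.960). After each group's mean was subtracted these values lay between 0.579 and 0.793. The arrays share groups, controls and scan days, so the values are descriptions.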

How the data were processed

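Per the labels, Cy3-labelled cRNA of each of 36 Bhas 42 samples was hybridised to a 1-colour Agilent array. Spot intensity was read by the authors in Agilent Feature Extraction (11.0.1.1), with background subtraction, per the file headers. The deposited value table held log2 values with a median of 0 per probe and column medians of -0.25 to 0.27. Its array scaling is not given in the sources used here. It followed the scanner values, except that 3 Min-U-Sil 5 columns correlated at 0.416 to 0.686 with their own arrays and best with other arrays of that group. Replicate numbers of Min-U-Sil 5 may thus be exchanged in the table or the scanner files, which leaves group means as they are. The table served as an alternative.

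The processed intensity was divided by each array's 75th percentile and taken to log2, without control and outlier spots. Spots of a probe were averaged. Probes had to be well above background on 3 or more of the 4 arrays of any group. RefSeq accessions named 32994 probes, and 23611 had no name. Per gene the brightest probe was used. limma 3.58.1 (R 4.3.3) fitted 9 group means to all arrays, with Benjamini-Hochberg adjustment over all genes and calls under 0.05. Named genes were the 8 members, at most 4 per pathway list and comparison by adjusted p, and the 3 most similar genes of 3 members. Members and lists were chosen with earlier results of these data known. Alternatives covered scaling, background, filters, probes, blocks and single arrays left out. Replicate numbers did not pair samples.

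The fit was tested on simulated data of the comparison NM-203 5 with Water, with 100 of 32336 genes changed at each size. It recovered 14% at a log2 change of 0.5 and 52% at 1, and 1 of 67 calls was false. Far more genes were called in the real comparison, which loosens the adjusted threshold, so these shares do not carry over to it.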

Additional observations from a re-analysis of the deposited data

Results flagged for a closer look

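Within groups of 4 arrays, 5 of the 72 combinations of gene and group held a value far from the other 3 by Dixon's criterion, which chance alone meets in about 1 in 20 groups, or 3.6 of 72. Hras read 2.79 on NM-203 2 replicate 4, against 2.20 to 2.27 on the other arrays of that group. Nras read 2.52 on Water replicate 3 and 2.22 on DE replicate 3, below the other arrays of each group. Rras read 2.11 on NM-203 1 replicate 3, against 2.59 to 2.64 on the others. Mras read 0.60 on DMSO replicate 4, against 1.03 on each of the others.

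The effect of NM-203 at 5 µg/cm² on Rras2 exceeded that of TPA by 0.66 (log2, adjusted p 0.00163 in limma), each against its own control. The NM-203 arrays read 2.23 to 2.62 and the TPA arrays 1.58 to 1.93.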

How the results depend on the processing

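Over single results, 1075 alternatives gave the same direction and call, 78 lost the call, 32 gained one and 15 turned a call round. Leaving out 1 array kept 742, lost 20 and gained 6. The call of Rras2 with NM-203 at 5 µg/cm², with Min-U-Sil 5 and against DE held in all of them. Unless a cause is named, the cause was not tested.

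With the second brightest probe, log2 changes turned for NM-203 at 2 µg/cm² (Mras 0.03, Araf 0.58), for NM-203 at 5 µg/cm² (Hras -0.07, Nras 0.45) and over DE (Araf 0.02). They also turned for Min-U-Sil 5 (Araf 0.06, Nf1 0.34) and for the water of Min-U-Sil 5 against Water (Hras 0.81, Mras 0.04, Araf 0.31, Braf -0.01). The second Hras probe was well above background on no array of NM-203 at 5 µg/cm² or Water and on 1 of the water of Min-U-Sil 5, so its values turn no Hras call. With the mean of passing probes, Araf with NM-203 at 2 µg/cm² was 0.10 and Hras between the waters 0.15. With the water of Min-U-Sil 5 as its control, NM-203 at 2 µg/cm² gave Mras 0.05 and Araf 0.02.

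With NM-203 at 2 µg/cm² over Water, 5 genes were called, against 2 with array median scaling, 0 with only the groups compared, 0 with slide and 0 with scan day as a block, 1 with the water of Min-U-Sil 5 as the control, 3 with the second brightest probe, and 4 to 7 without single arrays. With normexp and quantile normalization it was 6, with Rras and Braf called and Rras2 not. Calls over all genes moved too. They were 8125, against 6767 with array median scaling, 2912 with only the groups compared, 2327 with slide and 1716 with scan day as a block. They were 5060 with the water of Min-U-Sil 5 as the control, 8123 with the second brightest probe and 7997 with normexp and quantile normalization. For NM-203 at 5 µg/cm², 4 were called, against 1 within slide 1 and 1 within slide 3, which hold fewer arrays, and 3 to 4 without single arrays. For Min-U-Sil 5, 3 were called, also with the mean of passing probes but with Mras in place of Araf, against 1 within slide 4 and 1 within slide 5. Against DE, 3 were called, against 2 with array median scaling, 1 within slide 3 and 3 to 4 without single arrays. For TPA, 1 was called, against 0 with array median scaling, no filter on dim probes, only the groups compared, slide as a block, the deposited table, slide 1 only or without slide 4. It was 2, Nras and Araf, both lower, with probes well above background on all 36 arrays, array weights or the first scan day only. With the mean of passing probes it was also 2, but these were Rras2 and Mras, both higher. With the second brightest probe it was 1, a higher Rras2 in place of the lower Nras. Without single arrays it was 0 to 1. Over all genes 3792 were called with TPA, against 2287 with array median scaling and 2883 with only the groups compared. It was 3155 with slide as a block, 3581 with the deposited table and 4027 without slide 4. For the NM-203 effect minus the TPA effect, 1 was called, against 0 with normexp and quantile normalization, 3 with probes on all 36 arrays, only the groups compared or array weights, and 2 with slide as a block, the first scan day only or the second brightest probe. Over all genes 4806 were called there, against 3981 with normexp and quantile normalization and 6810 with array weights. Between the waters 6 were called, against 3 with the mean of passing probes, 0 with slide and 0 with scan day as a block, 2 without slide 4, 2 with the second brightest probe, and 4 to 6 without single arrays. First scan day, slide 4 left out and the second brightest probe were chosen after seeing the data.

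No pairing of replicate numbers was found: 0 to 2 of the 4 pairs per comparison correlated above 0.1, and the highest value was 0.45, between the waters. A replicate block gave 0, 5, 4, 0, 3 and 1 members called for NM-203 at 1, 2 and 5 µg/cm², DE, Min-U-Sil 5 and TPA, as without it, and turned or ended no member's call. The median change of all genes was 0.11 with NM-203 at 2 µg/cm² and 0.22 between the waters, against 0.15 and 0.02 with array median scaling. That scaling split the calls over all genes between the waters into 2842 higher and 2993 lower, in place of 6105 and 1841, with DE into 35 and 18, in place of 181 and 146, and between NM-203 at 5 µg/cm² and DE into 4547 and 3375, in place of 4541 and 4953.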
